A study of Mus musculus with 2 samples.

Results

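The miR-15/16 family and the cluster of miR-322, miR-503 and miR-351 were followed in small RNA from exosomes, vesicles shed by macrophages that can hand their RNA to neighbouring cells. The members are 9 mature mouse miRNAs chosen by name: mmu-miR-15a-5p, mmu-miR-15b-5p, mmu-miR-16-5p, mmu-miR-195a-5p and mmu-miR-497a-5p of the miR-15/16 family, and mmu-miR-322-5p, mmu-miR-322-3p, mmu-miR-503-5p and mmu-miR-351-5p of a cluster on the X chromosome (the prefix is left out below). All 9 were among the 1976 mature mouse miRNAs listed. M1 exosomes came from bone marrow-derived macrophages given 20 ng/mL IFN-γ for 1 day, and M2 exosomes from the same kind of cells given 20 ng/mL IL-4 for 1 day. Both cultures came from C57BL/6 mice of 5 to 6 weeks, were first grown for 7 days with 10 ng/mL M-CSF, and were moved to serum-free medium for the last 2 days, from which the vesicles were pelleted. There was 1 library from each kind of exosome, and how many mice or cultures each stands for is not given in the sources used here. No value below therefore has a replicate error, no test was possible, and every difference is one between 2 libraries and not between the 2 conditions. Exosomes of unpolarised macrophages were not analysed here. Fewer vesicles that hold a miRNA and fewer copies in each vesicle cannot be told apart in such a library.

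A miRNA guides its protein partner Argonaute to messenger RNAs mainly through its seed, the bases near its 5′ end. The miR-15/16 family restrains the cell cycle in mouse and human cells, where it represses D-type and E-type cyclins and the survival factor Bcl-2. miR-195 and miR-497, transcribed together, are best known from muscle and heart, where they hold cells out of division. miR-322 and miR-503 come from 1 X chromosome transcript. They repress the cell-cycle phosphatase Cdc25a, and miR-424, the human counterpart of miR-322, rises as human monocytes mature.

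The mature sequences are printed because they set which members can share targets and which can share reads. They are credited to RefSeq on GRCm38.p6, which matched 9 of the 9 members. All are written 5′ to 3′ with the seed (bases 2 to 8) in capitals.
miR-15a-5p: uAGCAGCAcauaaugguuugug
miR-15b-5p: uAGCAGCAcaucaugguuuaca
miR-16-5p: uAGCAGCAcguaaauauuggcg
miR-195a-5p: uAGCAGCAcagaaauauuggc
miR-497a-5p: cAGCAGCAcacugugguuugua
miR-322-5p: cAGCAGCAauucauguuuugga
miR-503-5p: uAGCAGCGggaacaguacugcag
miR-322-3p: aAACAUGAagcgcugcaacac
miR-351-5p: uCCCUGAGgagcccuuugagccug

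The members fell into 4 seed groups. The first 6 listed share all 7 seed bases. miR-503-5p shares bases 2 to 7 with them and differs at the last seed base, so 7 members hold the shorter match. miR-322-3p, the other arm of the miR-322 hairpin, has a seed that no other mature miRNA of the RefSeq table holds. miR-351-5p lies in the X chromosome cluster but carries the seed of the miR-125 family.
miR-351-5p: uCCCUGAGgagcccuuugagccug
miR-125a-5p: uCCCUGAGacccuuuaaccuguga
miR-125b-5p: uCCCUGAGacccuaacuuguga
Read from the 5′ end, miR-16-5p and miR-195a-5p are the same at 19 of 21 bases, and miR-15a-5p and miR-15b-5p at 18 of 22. How reads that fit more than 1 mature miRNA were assigned is not given in the sources used here, so the split between such close members is uncertain.

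The hairpins lie at 4 loci (GRCm38.p6 positions from RefSeq, overlapping genes from GENCODE M21). Mir15a (chr14:61632027-61632110) and Mir16-1 (chr14:61631880-61631972) lie in the non-coding gene Dleu2 on its own strand, the first in an intron and the second overlapping an annotated exon. Mir15b (chr3:69009772-69009835) and Mir16-2 (chr3:69009902-69009996) lie in an intron of Smc4, which encodes a condensin subunit. Mir497 (chr11:70234717-70234800) and Mir195a (chr11:70235042-70235135) are neighbours, and the hairpin of miR-497b overlaps Mir497 on the opposite strand. Mir322 (chrX:53054255-53054349), Mir503 (chrX:53053984-53054054) and Mir351 (chrX:53053255-53053353) follow each other on the minus strand and overlap no other annotated gene. Mature miR-16-5p is made from both Mir16-1 and Mir16-2, and its value does not separate them.

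The deposited values are log2(level + 1), and levels are given here in units, the linear scale of those values. At low levels 1 read was worth 0.80 units in the M1 library, against 1.22 units in the M2 library. Levels summed to 686353 units in the M1 library, against 734637 units in the M2 library, and read totals were not analysed here. The members are 21 to 24 bases long, so levels of different miRNAs were set side by side without a length correction, and how well each is ligated into a library was not corrected for. A miRNA was compared if it reached 10 units in at least 1 library, which 337 miRNAs did, and it was called different at a log2 ratio (M1 value minus M2 value) of at least 1 in size. The median log2 ratio of all compared miRNAs was 0.039. Myeloid markers were present in both libraries: each of the 6 checked (miR-223-3p, both arms of miR-142a, miR-155-5p, miR-146a-5p and miR-21a-5p) was above 100 units in both. Of these 6, miR-142a-5p (log2 ratio 1.72), miR-155-5p (1.35) and miR-146a-5p (1.25) were called toward the M1 library and miR-142a-3p (-1.07) toward the M2 library, while miR-223-3p (-0.69) and miR-21a-5p (-0.99) lay within 2-fold. Among all compared miRNAs, 26.1% were called toward the M1 library and 22.8% toward the M2 library.

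Of the 9 members, 7 were compared. miR-503-5p alone was at least 2-fold higher in the M1 library, against a background of 26.1% of all compared miRNAs. miR-15a-5p, miR-322-5p and miR-351-5p, 3 members, were at least 2-fold higher in the M2 library, against a background of 22.8%. miR-15b-5p, miR-16-5p and miR-322-3p lay within 2-fold. miR-322-5p reached the minimum in the M2 library alone, where it is high, and 2 members were higher in the M2 library when both libraries had to reach 10 units. Calls in either direction took 57.1% of the compared members and 49.0% of all compared miRNAs, a share near the background. The median log2 ratio of the compared members was -0.61. Setting miR-322-5p at the least fold given below could not move it, because that member stays the lowest of the 7. When both libraries had to reach 10 units, which leaves out miR-322-5p, the median was -0.51. Of the 7 compared members, 5 had a ratio below 0, miR-322-5p among them, against 49.3% of all compared miRNAs.

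**Figure D1:**
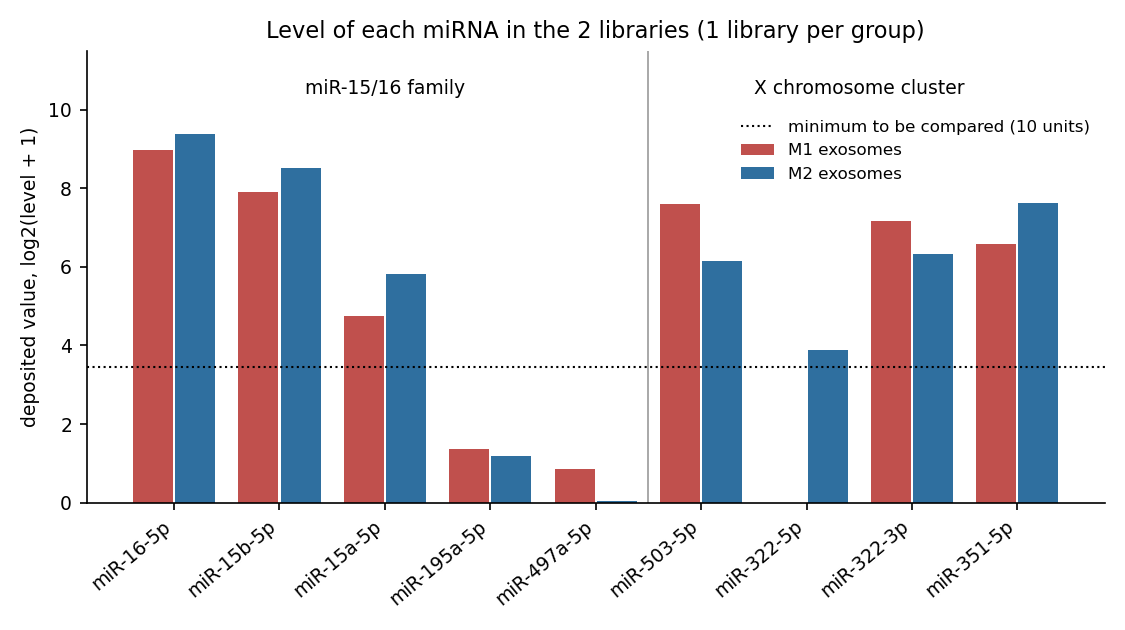
Deposited log2(level + 1) value of each of the 9 miRNAs in M1 exosomes (red, left bar) and in M2 exosomes (blue, right bar), 1 library each, with a dotted line at the minimum of 10 units. miR-16-5p is the tallest in both libraries, miR-503-5p is taller in the M1 library, and miR-322-5p has no bar in the M1 library because it is listed at 0.

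miR-16-5p, the most widely expressed member of the family, was the most abundant of the 9 in both libraries, with 502.6 units in the M1 library, against 667 units in the M2 library. It ranked 87th of all listed miRNAs in the M1 library and 72nd in the M2 library, so it was well below the leading miRNAs of either. Its log2 ratio was -0.41. miR-15b-5p, which is cut from the same Smc4 transcript as one of the miR-16 hairpins, stood at 239 units in the M1 library, against 366 units in the M2 library. Its log2 ratio was -0.61, so both abundant family members were lower in the M1 library by less than 2-fold. Their proportion to each other was similar in the libraries, with 0.476 units of miR-15b-5p for each unit of miR-16-5p in the M1 library, against 0.549 in the M2 library.

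miR-15a-5p, the Dleu2 member, was much scarcer. It had 26.1 units in the M1 library, against 55.5 units in the M2 library, a log2 ratio of -1.06. That is only just past the 2-fold line, and the call ended when each library was divided by its summed level (log2 ratio -0.97) or when 10 units were added before taking logs (-0.86).

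The muscle-linked pair was at the edge of detection. miR-195a-5p stood at 1.57 units in the M1 library, against 1.30 units in the M2 library, which is 1.97 times and 1.06 times the worth of 1 read there. miR-497a-5p stood at 0.80 units in the M1 library, the worth of 1 read, and at 0.021 units in the M2 library, which is less than 1 read. Neither was compared, and no difference was detectable at this depth. miR-195a-5p differs from the far more abundant miR-16-5p at 2 bases, so the assignment of such single reads is uncertain. A further 4 mature miRNAs with the same 7 seed bases (miR-195b, miR-6342, miR-6353 and miR-6419) were listed at 0 in both libraries, as were miR-497b and miR-1907.

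The opposite arms of the family hairpins, which are usually the less stable ones, were measured too. miR-15b-3p was the most abundant of them, with 81.4 units in the M1 library, against 229 units in the M2 library, and its log2 ratio of -1.48 lay further from 0 than that of its partner. The 2 arms are shown in capitals within their hairpin.
Mir15b hairpin: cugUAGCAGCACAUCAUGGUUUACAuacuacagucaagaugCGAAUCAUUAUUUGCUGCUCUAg
For each unit of the 3p arm there were 2.94 units of the 5p arm in the M1 library, against 1.60 in the M2 library. miR-16-2-3p, from the same Smc4 locus, had 5.48 units in the M1 library, against 12.6 units in the M2 library, with a log2 ratio of -1.07 that rests on a level of 6.84 times the worth of 1 read in the M1 library, against 10.3 times in the M2 library. miR-16-1-3p, from the Dleu2 locus, had 19.0 units in the M1 library, against 21.5 units in the M2 library, a log2 ratio of -0.17. miR-16-2-3p reached the minimum in the M2 library alone, so no contrast between the loci is drawn from these arms. miR-15a-3p was listed at 0.80 units in the M1 library, against 0.021 units in the M2 library. Among the 8 opposite arms set beside the members, 3 were compared, with 0 at least 2-fold higher in the M1 library (background 26.1%) and 2 in the M2 library (background 22.8%), 1 of which is miR-16-2-3p.

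miR-503-5p went the other way. It stood at 194 units in the M1 library, against 69.6 units in the M2 library, which is 2.79-fold higher in the M1 library with a log2 ratio of 1.47. The call held under every alternative scaling and pseudocount tried, with log2 ratios between 1.36 and 1.56. Its opposite arm miR-503-3p had 6.32 units in the M1 library, against 6.34 units in the M2 library, under the minimum in both.
Mir503 hairpin: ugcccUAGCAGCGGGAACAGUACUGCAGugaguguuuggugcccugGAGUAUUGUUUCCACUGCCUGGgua
The capitals mark the 2 arms, the 5p arm first. The 5p arm made up 96.8% of the summed level of both arms in the M1 library, against 91.6% in the M2 library.

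The arms of the miR-322 hairpin went opposite ways. The 5p arm is the one that carries the miR-15/16 seed, and the 3p arm carries the unrelated seed.
Mir322 hairpin: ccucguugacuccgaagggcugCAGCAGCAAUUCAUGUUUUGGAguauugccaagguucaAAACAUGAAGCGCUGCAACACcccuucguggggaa
miR-322-3p stood at 142.5 units in the M1 library, against 79.7 units in the M2 library, a log2 ratio of 0.83 that lies within 2-fold. miR-322-5p was listed at 0 in the M1 library and stood at 13.7 units in the M2 library, about 11.2 times the worth of 1 read. Up to 3 reads can go with a listed 0 (2.40 units in the M1 library, counting error only). With the M2 level taken as measured, miR-322-5p was at least 5.71-fold higher in the M2 library. The counting error of the M2 level is left out of that fold, so it is not a full lower limit. The 3p arm exceeded the 5p arm in both libraries. With the 3p level taken as measured, it did so at least 59.4-fold in the M1 library, against 5.81-fold in the M2 library. The 5p value in the M2 library rests on few reads.

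miR-351-5p, the cluster member with the miR-125 seed, stood at 94.9 units in the M1 library, against 197 units in the M2 library. Its log2 ratio was -1.04, again just past the 2-fold line, and the call ended after division by the summed level (-0.95) or with 10 units added (-0.98). miR-125b-5p, which has the same seed, was lower in the M1 library as well, at 206.5 units against 971 units in the M2 library (log2 ratio -2.23). miR-125a-5p stood at 286 units in the M1 library, against 328.5 units in the M2 library (log2 ratio -0.20). miR-6367 and miR-6394, which also have this seed, were listed at 0 in both libraries. miR-351-5p supplied 16.2% of the level with this seed in the M1 library, against 13.2% in the M2 library.

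Members of the X chromosome cluster thus did not share a direction. There were 2.04 units of miR-503-5p for each unit of miR-351-5p in the M1 library, against 0.353 in the M2 library, a 5.78-fold difference between the libraries in a proportion that dividing a library by a constant leaves unchanged, though a normalization that depends on level may not. Between miR-503-5p and miR-322-3p the proportion was 1.36 in the M1 library, against 0.873 in the M2 library, so these 2 stayed closer to each other. The 4 cluster members summed to 431 units in the M1 library, against 360 units in the M2 library. miR-503-5p supplied 45.0% of that sum in the M1 library, against 19.3% in the M2 library, and miR-351-5p 22.0% in the M1 library, against 54.7% in the M2 library.

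**Figure D2:**
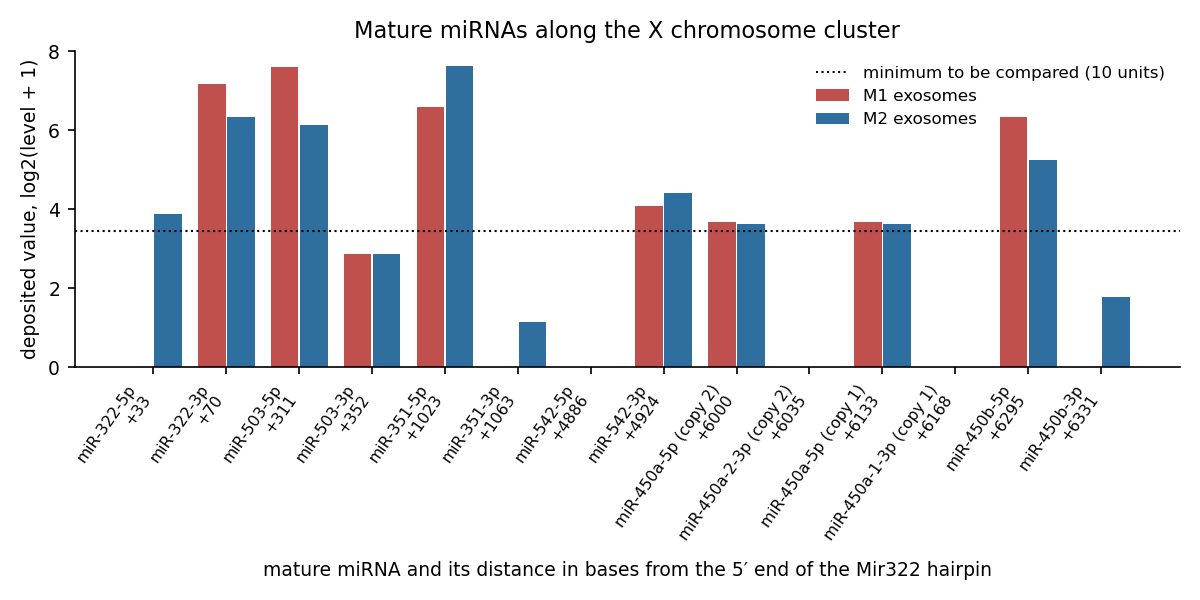
Deposited log2(level + 1) values in M1 exosomes (red, left bar) and in M2 exosomes (blue, right bar) of the 13 mature miRNAs of the X chromosome cluster, in order of their distance in bases from the 5′ end of the Mir322 hairpin. miR-450a-5p is drawn at both Mir450 copies it comes from, and the bars of miR-503-5p, miR-322-3p and miR-450b-5p are taller in the M1 library while those of miR-351-5p and miR-322-5p are taller in the M2 library.

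Further along the same strand of the X chromosome lie more miRNA hairpins. Among the 7 mature miRNAs of miR-542, miR-450a and miR-450b, 3 were compared. Of these, 1 was at least 2-fold higher in the M1 library (background 26.1%), against 0 in the M2 library (background 22.8%). miR-450b-5p was that one, with 79.2 units in the M1 library, against 36.7 units in the M2 library, a log2 ratio of 1.09. miR-542-3p had 15.8 units in the M1 library, against 20.2 units in the M2 library, and miR-450a-5p had 11.9 units in the M1 library, against 11.4 units in the M2 library. Across all 13 mature miRNAs of the region, 7 were compared: 2 were called toward the M1 library (background 26.1%), 2 toward the M2 library (background 22.8%), and 3 lay within 2-fold, which is near the background share of calls, 49.0%. The furthest of the 13 lies 6331 bases from the start of Mir322.

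The 7 members that share bases 2 to 7 summed to 964 units in the M1 library, against 1174 units in the M2 library, a log2 ratio of -0.28. A sum does not depend on how reads were split among those members. Without miR-503-5p, the 6 members with the full seed summed to 770 units in the M1 library, against 1104 units in the M2 library, a log2 ratio of -0.52. miR-16-5p supplied 52.1% of the level of the 7 in the M1 library, against 56.8% in the M2 library. miR-15b-5p supplied 24.8% in the M1 library, against 31.2% in the M2 library, and miR-503-5p 20.1% in the M1 library, against 5.93% in the M2 library. The weight of miR-503-5p within the family was thus larger in the M1 library, and that of miR-15b-5p and miR-16-5p smaller. All 9 members together made up 0.175% of the summed level of M1 exosomes and 0.197% of that of M2 exosomes.

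**Figure D3:**
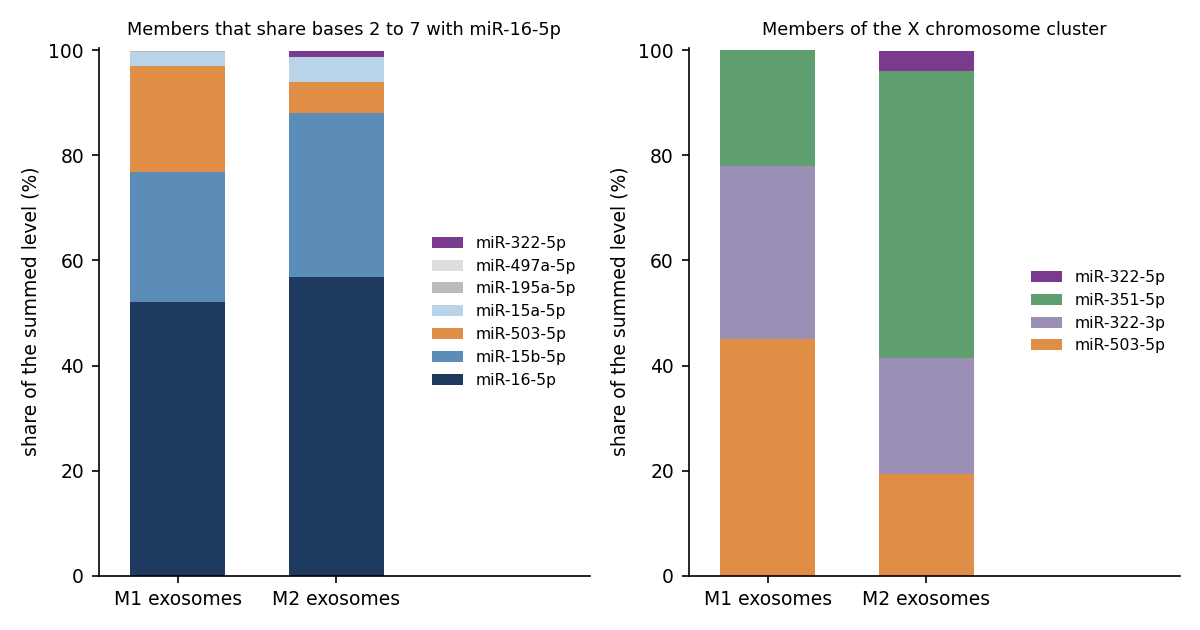
Share of the summed level (percent) that each miRNA supplied in M1 exosomes (left bar) and in M2 exosomes (right bar), for the 7 members that share bases 2 to 7 with miR-16-5p (left panel) and for the 4 members of the X chromosome cluster (right panel). miR-503-5p takes 20.1% of the seed family in the M1 library, against 5.93% in the M2 library.

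The order of the members changed in the middle. In the M1 library miR-16-5p and miR-15b-5p were followed by miR-503-5p, miR-322-3p, miR-351-5p and miR-15a-5p. In the M2 library miR-351-5p took the place of miR-503-5p behind that pair, followed by miR-322-3p, miR-503-5p and miR-15a-5p. Without replicates it cannot be said which neighbours in this order differ. The listed miRNAs nearest to miR-16-5p in the 2 deposited values were miR-30b-5p, at a distance of 0.034 on the log2 scale, miR-100-5p at 0.22 and miR-30c-5p at 0.40. Those nearest to miR-351-5p, the most abundant cluster member by mean level, were miR-582-3p at 0.009, miR-30f at 0.083 and let-7e-5p at 0.28. With 2 libraries such nearness says only that the levels are alike.

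Relatives outside the family were set beside it. miR-103-3p and miR-107-3p, which act on lipid and glucose metabolism, hold bases 2 to 7 of miR-16-5p shifted by 1 place, from their own first base.
miR-103-3p: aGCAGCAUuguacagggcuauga
miR-107-3p: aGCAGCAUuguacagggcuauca
miR-103-3p had 157 units in the M1 library, against 313 units in the M2 library, a log2 ratio of -0.995. miR-107-3p had 41.1 units in the M1 library, against 78.3 units in the M2 library, a log2 ratio of -0.91. Both lay within 2-fold, next to the line, and they differ from each other at 1 of 23 bases, so they may share reads. In the family of miR-34 and miR-449, which also represses cyclins and their kinases, 2 of 6 listed members were compared. Both lay within 2-fold, against a background of 49.0% called in either direction. miR-34a-5p had 27.7 units in the M1 library, against 34.1 units in the M2 library (log2 ratio -0.29), and miR-34c-5p 8.66 units in the M1 library, against 13.9 units in the M2 library (-0.62). The other 4 were listed at 0 in both libraries.

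**Figure D4:**
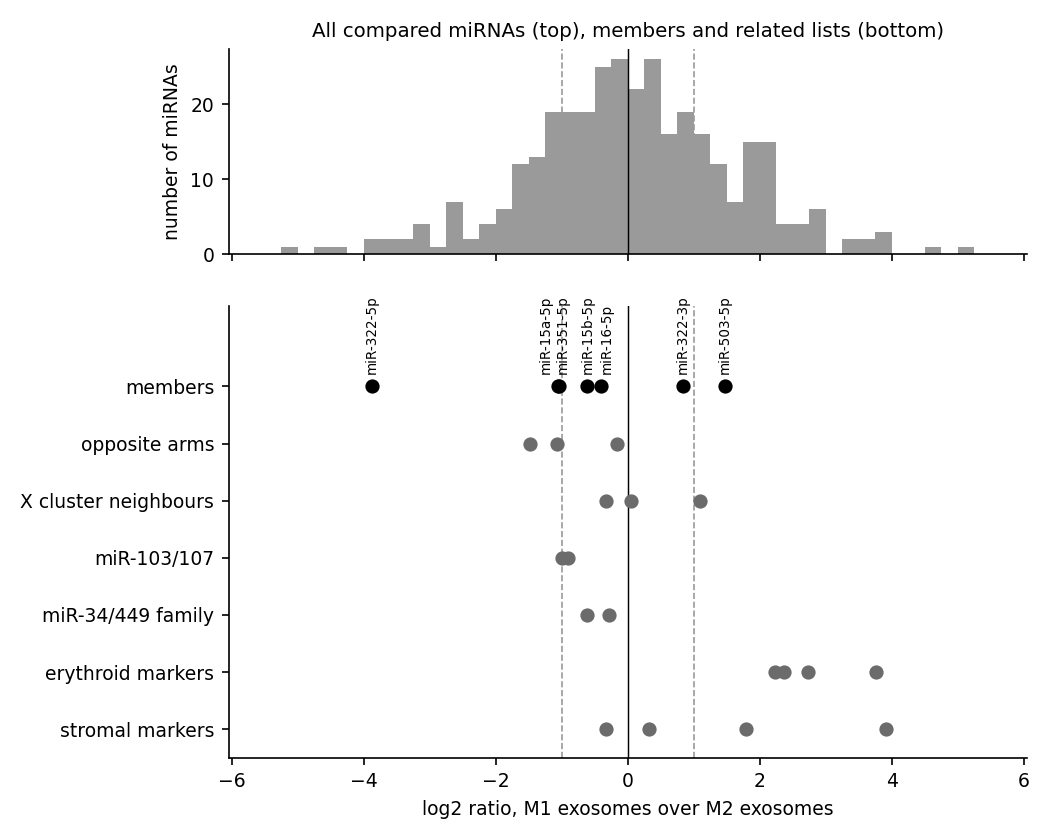
Histogram of the log2 ratio, M1 exosomes over M2 exosomes, of the 337 compared miRNAs (top), and the ratios of the compared members, opposite arms, X cluster neighbours, related families and marker lists (bottom, 1 point per miRNA), with dashed lines at 2-fold. The members spread over both sides of 0, with miR-322-5p furthest to the left, and the 4 compared erythroid markers lie to the right of the 2-fold line.

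Markers of other cells differed between the libraries beside these results. Red blood cells are rich in miR-16 and miR-451a. Of 5 erythroid markers 4 were compared, each at least 2-fold higher in the M1 library (background 26.1%). Of these 4, miR-144-5p reached the minimum in the M1 library alone, with 48.4 units, against 2.66 units in the M2 library. miR-486a-5p (2958 units in the M1 library, 576 in the M2 library) and miR-486b-5p (2756 and 587.5) had close levels. Whether they share reads was not tested, so they may not count as separate markers. The list summed to 7948 units in the M1 library, against 1498 units in the M2 library, with none at 0 in either. There were 0.230 units of miR-16-5p for each unit of miR-451a in the M1 library, against 2.02 in the M2 library, and the part of red cells in the level of miR-16-5p was not tested. Of 5 stromal markers 4 were compared, 2 of them at least 2-fold higher in the M1 library (background 26.1%), against 0 in the M2 library (background 22.8%). These 2 were miR-199a-3p (log2 ratio 1.79) and miR-145a-5p. The latter reached the minimum in the M1 library alone, with 35.0 units, against 1.39 units in the M2 library. miR-199a-5p (log2 ratio 0.315) and miR-143-3p (-0.333) lay within 2-fold. The stromal list summed to 1329 units in the M1 library, against 776 units in the M2 library. No stromal marker was at 0, but miR-214-3p, at 0.080 units in the M2 library, lay below 1 read. miR-503-5p was higher in the library where the sums of the erythroid and stromal lists were higher, though not every stromal marker was. The myeloid list summed higher there too, at 147400 units, against 98550 units in the M2 library. Of its 6 markers, 3 were called toward the M1 library and 1 toward the M2 library. The part of red, stromal or myeloid cells in the difference of miR-503-5p was not tested. Of 5 muscle markers 2 were compared. miR-133b-3p (log2 ratio -3.12, on an M1 level below 1 read) was called toward the M2 library (background 22.8%), and miR-206-3p lay within 2-fold. The muscle list summed to 18.8 units in the M1 library, against 42.7 units in the M2 library, and miR-208a-3p was at 0 in both. The hepatocyte marker miR-122-5p had 59760 units in the M1 library, against 12650 units in the M2 library, a log2 ratio of 2.24. It ranked 2nd of all listed miRNAs in the M1 library and 14th in the M2 library. Its source was not tested.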

How the data were processed

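Small RNA libraries were made from 500 ng of exosome RNA with a NEBNext kit, per the labels' protocols. Per the submitters' processing notes, Bowtie2, bedtools and mm10 were used, with no version or step stated. The authors deposited 1 log2 value per mature miRNA and library, while counting, shared reads and normalization are not described in the sources used. The scale, log2(level + 1), was settled from the values. The worth of 1 read was taken as the most common level among miRNAs nearly absent from the other library. These were 175 miRNAs in M1 exosomes (below 1 unit in M2 exosomes) and 129 in M2 exosomes (at 0 in M1 exosomes). Of these levels 99.4% in M1 exosomes and 95.3% in M2 exosomes were whole multiples of that worth within 0.1 step. The worth came from the same levels, so these shares are partly built in. In M2 exosomes 175 values lay below 1 read and followed the M1 value, so the libraries were treated as normalized together. Intervals were not given because read counts at higher levels are unknown.

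The plan allowed for counts, and the values are not counts, so the minimum of 10 was read as units. miRNAs named in the text are the 9 members, lists set by name, and the 3 miRNAs nearest to each of 2 members. Members and lists were chosen with earlier results of these data known. miR-646 was on a list but not among the listed miRNAs. miR-125a-5p, miR-125b-5p and the ratios between pairs of miRNAs were chosen after their values were seen. Alternatives were other minimums, scalings and a larger pseudocount. The calling rule was run on simulated data with planted differences well above the 2-fold line and counting error only. Recovery was thus largely built in, and the run says nothing of calls near the line or of variation between cultures. Calculations used Python 3.11.15, numpy 2.4.6 and pandas 2.3.3.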

Additional observations from a re-analysis of the deposited data

How the results depend on the processing

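No paired analysis was possible because there is a single library for M1 and for M2, and for the same reason no library could be left out. TMM factors were not run because the values are not counts. The number of members at least 2-fold higher in M2 exosomes, 3 as reported, was 1 after division of each library by its summed level, 1 with a minimum of 100 units, which leaves out miR-15a-5p and miR-322-5p, 1 with a pseudocount of 10 units and 2 when both libraries had to reach 10 units. miR-503-5p was the 1 member higher in M1 exosomes under each of the 7 alternatives. Another minimum leaves its log2 ratio as it is, so only the scalings and the pseudocount could have moved that ratio. Their shifts were too small to end the call, so its standing under them is no added support. Of 36 alternative values of the members' log2 ratios, 32 kept their direction and their side of the 2-fold line and 4 fell within 2-fold, those of miR-15a-5p (-0.97 and -0.86) and miR-351-5p (-0.95 and -0.98). The log2 ratio of miR-322-5p, with no M1 level, depends on the pseudocount and is no bound (-1.25 with 10 units, -3.88 as deposited). Over all miRNAs, calls toward the M1 library numbered 201 without a minimum, 37 from 100 units up and 55 when both libraries had to reach 10 units, and calls toward the M2 library 229, 33 and 37. The median of the members ranged from -0.68 to -0.41. Division by the summed level moved ratios up by at most about 0.098, less at low levels. The sums of the members and of the seed family kept their direction under each scaling and without miR-16-5p (-0.16 and -0.13). The worth of 1 read is known only at low levels, which limits miR-195a-5p, miR-497a-5p and miR-322-5p most.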
